A study of Homo sapiens with 12 samples.

Results

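The comparison described here is 24 h of the AKT inhibitor ipatasertib (AKTi) against DMSO vehicle in C4.2B, a human prostate cancer line of LNCaP descent that grows without androgen, with 3 libraries in each arm. These are 6 of the 12 polyA RNA-seq libraries of the study, and 16646 of the 58735 genes counted had enough reads to be tested. The question was which classes of genes AKT inhibition alone raised and which it lowered.

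AKT is the serine/threonine kinase that carries the signal of receptor tyrosine kinases and PI3K. It phosphorylates FOXO transcription factors, which keeps them out of the nucleus, and through TSC2 and mTORC1 it promotes ribosome production, protein synthesis and glycolysis. In many prostate cancers AKT signaling is constitutively high, and inhibitors of the pathway are known to relieve feedback on receptor tyrosine kinases and on androgen signaling.

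The DMSO arm received no inhibitor and the AKTi arm received ipatasertib at 0.25 μM for 24 h. The design includes a pretreatment of 6 days with the EZH2 inhibitor, which these arms did not receive. The study's methods describe DMSO over that time for its cell counting assay and do not restate it for RNA-seq. Cells were then replated at 250000 cells per plate. Dosing was in 10% charcoal-stripped FBS, serum from which steroids such as androgens are largely removed. The other arms received the EZH2 inhibitor tazemetostat at 1 μM, pretreatment included (EZH2i), or both agents (combination), and they are compared here only to see how ipatasertib acted in cells that already carried tazemetostat, although their libraries also entered the filter, scaling and estimate of spread behind every test. All libraries come from 1 cell line at 1 dose and 1 time. Replicates A, B and C are plates seeded in triplicate per the study's methods. Whether they were pretreated as separate cultures was not given in the sources used here, so p-values measure the spread between plates of 1 line.

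Totals ran from 14565714 to 22276417 counts in DMSO and from 14133755 to 14815838 in AKTi, with 22252 to 23008 genes detected per library. Libraries of the same arm differed by more than sampling noise (chi-square of 2.53 to 7.50 per gene), so none was treated as a duplicate deposit, which says nothing on how independent they were. The line expressed luminal prostate markers, with a summed level of 12 of them of 989 to 1022 CPM per kilobase in DMSO and 1495 to 1523 in AKTi. The sums of 6 markers each were at most 1.41 CPM per kilobase for basal epithelium, at most 0.418 for endothelium and at most 0.429 for leukocytes, and 7 fibroblast markers summed to at most 1.09. The defining basal genes KRT5 and TP63 and the endothelial genes PECAM1 and KDR had 0 counts in all 6 libraries. A gene's level is given below in CPM, its counts scaled to a common library total by TMM, with libraries in the order A, B and C, and a change as the log2 fold change of AKTi minus DMSO with its standard error (SE). Fold changes are relative to the rest of the transcriptome, and RNA per cell was not measured.

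Ipatasertib changed a large share of the transcriptome by small amounts. At an adjusted p-value under 0.05, 7073 genes (42.5% of those tested) differed between AKTi and DMSO, of which 3429 (20.6%) were higher and 3644 (21.9%) lower. The AKTi libraries all lay above the DMSO libraries for 24.9% of the tested genes and all below for 26.1%, together 51.1%. Most changes were modest, because 3924 of the called genes (55.5%) moved by less than 0.5 on the log2 scale. A change of at least 2-fold was seen for 593 genes that rose and 346 that fell. The balance of directions depended on the scaling, with 4112 higher and 3023 lower when libraries were scaled by size only, where the median of all genes shifted from 0.01 to 0.07.

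**Figure D1:**
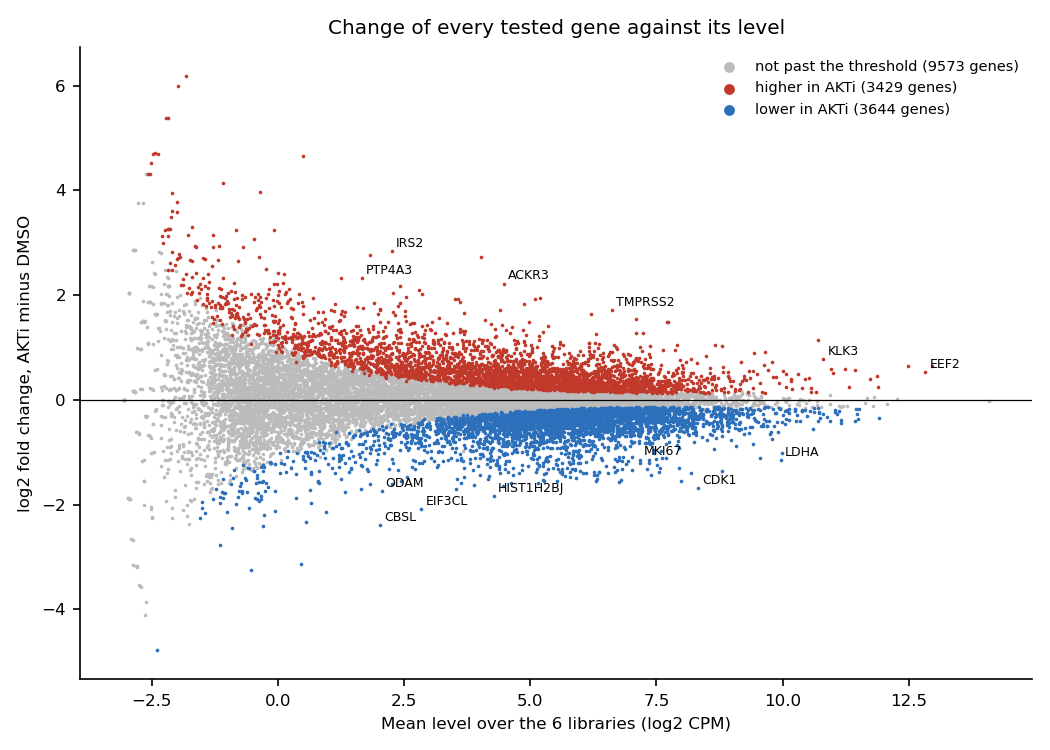
Each point is 1 of the 16646 tested genes, with its mean level over the 6 libraries (log2 CPM) on the x axis and its log2 fold change (AKTi minus DMSO) on the y axis. Red points are the 3429 genes that were higher, blue points the 3644 that were lower and gray points the rest. Decreases dominate among the most abundant genes and increases among the sparse ones.

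The direction went with the abundance and the class of the RNA. In the most abundant quartile of tested genes, 1705 fell and 979 rose, whereas in the least abundant quartile 113 fell and 401 rose. Protein-coding genes were split nearly evenly, with 3022 higher and 3436 lower of 13083. Long noncoding RNAs leaned upward, with 12.9% higher and 4.90% lower of 2365, although the classes were not matched for abundance. Pseudogenes showed no such lean, with 77 higher and 84 lower of 978.

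The gene classes were followed with 47 lists that hold 1256 different tested genes, some of them in more than 1 list. The lists were chosen with earlier results of these data known, so their counts describe the classes and do not test them. Among lists of at least 10 tested genes, the lowest medians were those of mitosis and DNA replication, followed by G1 regulators, proteasome, nucleotide synthesis, serine and one-carbon enzymes and ribosome assembly. The highest medians were those of luminal prostate markers, mitochondrially encoded subunits, FOXO-responsive genes, receptor adaptors and androgen-responsive genes. Over all tested genes the median was 0.01, with 20.6% higher and 21.9% lower. In the most abundant quartile 23.5% were higher and 41.0% lower, and the lists were not matched for level.

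**Figure D2:**
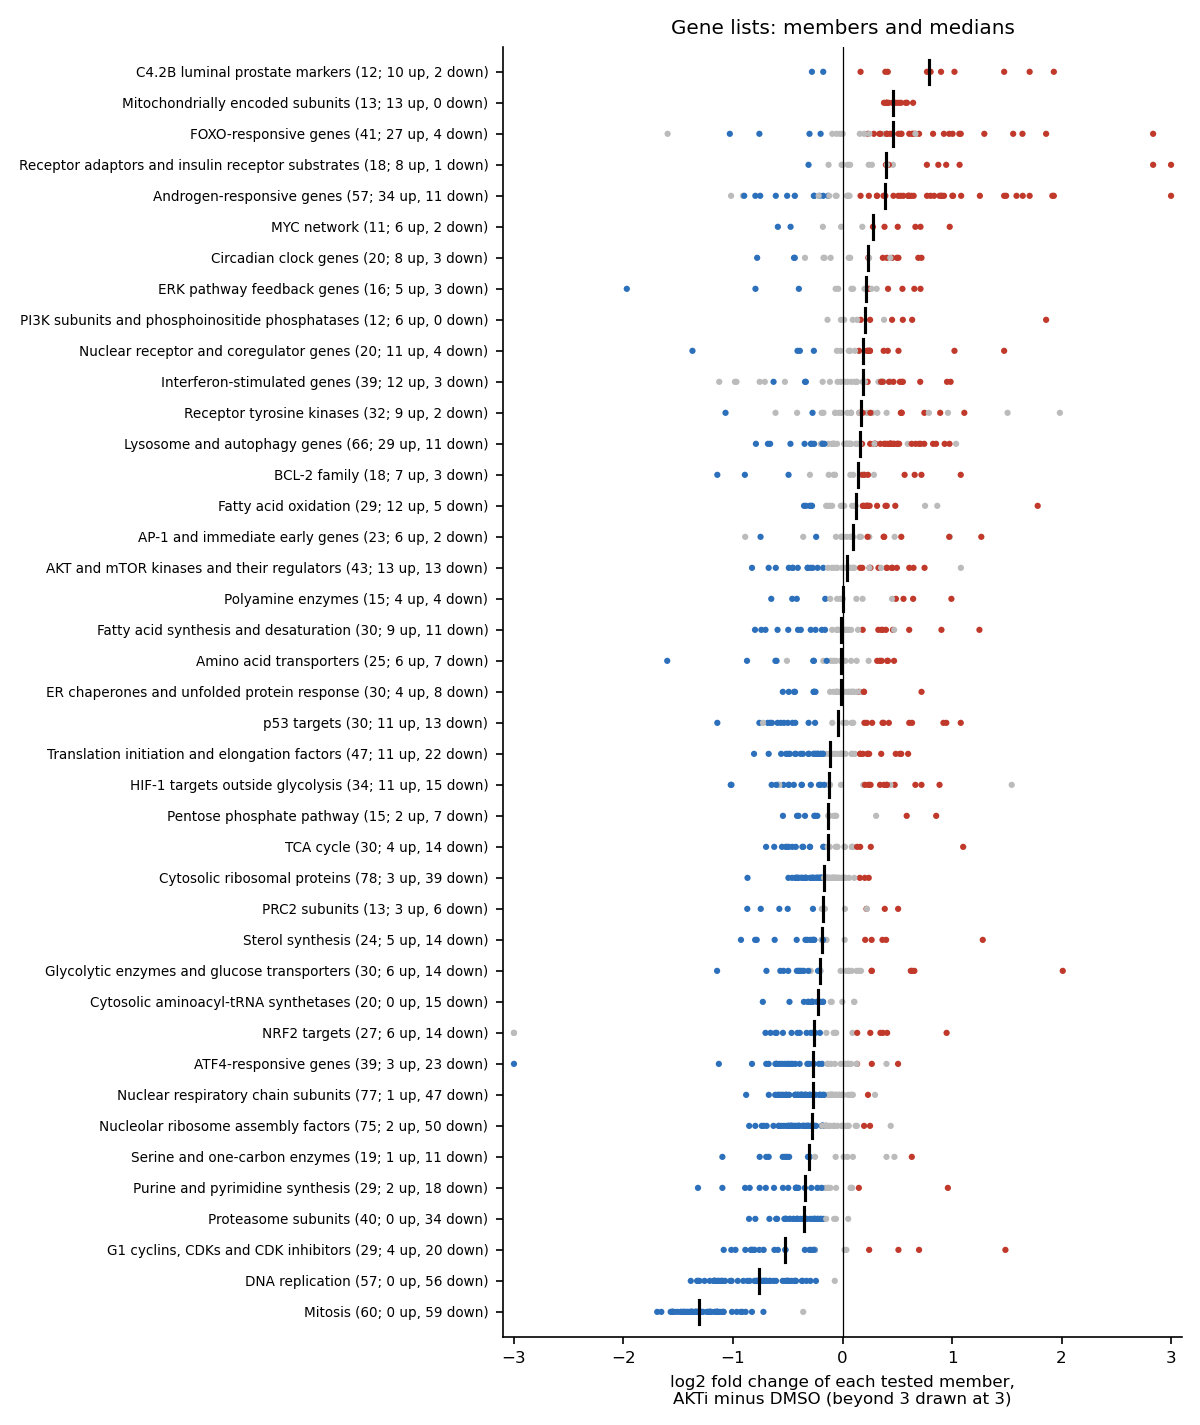
Each row is 1 list with at least 10 tested genes, and each point is the log2 fold change (AKTi minus DMSO) of 1 member, in red where it rose, in blue where it fell and in gray where it did not pass the test. Black bars mark list medians, from -1.31 for mitosis to 0.79 for the luminal prostate markers.

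The insulin receptor substrates IRS2 and IRS1 rose. Among receptor adaptors and insulin receptor substrates, which couple receptors to PI3K, 8 of 18 tested members rose and 1 fell (median log2 fold change 0.40). IRS2, the insulin receptor substrate encoded at chr13:109752698-109786568 (hg38), was at 1.41, 1.84 and 1.92 CPM in DMSO and 10.2, 14.0 and 13.2 CPM in AKTi. The arms did not overlap, and IRS2 rose 7.14-fold (log2 fold change 2.84 ± 0.17 (SE), adjusted p = 3.64e-16), the largest increase among named protein-coding genes above 1 log2 CPM. Its paralog IRS1 was at 21.7, 20.7 and 27.5 CPM in DMSO and 41.1, 44.8 and 43.4 CPM in AKTi and rose 1.83-fold (log2 fold change 0.87 ± 0.091, adjusted p = 5.56e-10). The adaptor SHC2 was nearly absent in vehicle, with 0, 0.0738 and 0.0959 CPM in DMSO and 1.23, 0.771 and 1.60 CPM in AKTi, and too few reads lay behind the DMSO values for a fold change. FRS3, an adaptor of FGF receptors, rose by 1.07 ± 0.22 on the log2 scale, while its relative FRS2 was the only member of the list that fell (-0.31 ± 0.076).

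A minority of receptor tyrosine kinases changed. Of the 32 tested, 9 rose and 2 fell (median 0.17), shares of 28.1% and 6.2% against 20.6% and 21.9% of all genes. IGF1R, the IGF-1 receptor, was at 33.1, 35.3 and 30.3 CPM in DMSO and 66.0, 75.5 and 70.8 CPM in AKTi, a 2.16-fold rise (log2 fold change 1.11 ± 0.073, adjusted p = 4.02e-15). The EGF receptor family members ERBB2 and ERBB3 rose together. ERBB2 went from 103, 109 and 112 CPM in DMSO to 176, 186 and 185 CPM in AKTi (log2 fold change 0.75 ± 0.056, adjusted p = 1.68e-13), and ERBB3 was at 175, 175 and 181 CPM in DMSO and 259.6, 254 and 254 CPM in AKTi (log2 fold change 0.53 ± 0.051, adjusted p = 8.2e-11). The insulin receptor INSR rose 1.45-fold (0.54 ± 0.078) and the pseudokinase PTK7 1.86-fold (0.89 ± 0.13). MET, the hepatocyte growth factor receptor, and EPHB3 were lower (-1.07 ± 0.36 and -0.27 ± 0.10), with adjusted p = 0.0152 and 0.0277. MET lost its call without DMSO replicate A or AKTi replicate C, and EPHB3 without DMSO replicate B or AKTi replicate A and under scaling by library size or upper quartile.

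Within the pathway itself most changes were smaller and they went both ways. Of PI3K subunits, their inhibitor PIK3IP1 and phosphoinositide phosphatases, 6 of 12 tested members rose and 0 fell. PIK3IP1, a membrane protein that restrains PI3K, was at 6.06, 7.38 and 5.71 CPM in DMSO and 23.2, 22.5 and 22.9 CPM in AKTi and rose 3.63-fold (log2 fold change 1.86 ± 0.12, adjusted p = 1.5e-15). The catalytic subunits PIK3CA (0.64 ± 0.13), PIK3CD (0.55 ± 0.057) and PIK3CB (0.25 ± 0.062) also rose.

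The AKT and mTOR kinases and their regulators were balanced, with 13 of 43 higher and 13 lower (30.2% each). Among all tested genes 20.6% were higher and 21.9% lower. The list counts were 16 and 10 when scaled by library size or upper quartile. AKT2 rose slightly, from 178, 173 and 183 CPM in DMSO to 212, 206 and 215 CPM in AKTi (log2 fold change 0.25 ± 0.053, adjusted p = 0.000245). AKT1 was at 189, 206 and 204 CPM in DMSO and 172, 176 and 182 CPM in AKTi (log2 fold change -0.18 ± 0.059, adjusted p = 0.0147), a difference that did not pass under scaling by library size or upper quartile or without AKTi replicate A. TSC2, the inhibitor of mTORC1 that AKT phosphorylates, rose 1.32-fold (0.40 ± 0.057), whereas MTOR (-0.08 ± 0.064, adjusted p = 0.345) and EIF4EBP1 (-0.13 ± 0.06, adjusted p = 0.0761) did not pass. The sestrins SESN1 and SESN3, which dampen mTORC1, rose by 0.61 ± 0.074 and 0.65 ± 0.058. EIF4E, the cap-binding translation factor, fell from 139, 129 and 136 CPM in DMSO to 86.9, 84.9 and 81.1 CPM in AKTi (log2 fold change -0.67 ± 0.07, adjusted p = 4.71e-10), and TRIB3, a pseudokinase that binds AKT, fell from 225, 216 and 241 CPM in DMSO to 123, 133 and 129 CPM in AKTi (log2 fold change -0.83 ± 0.067, adjusted p = 1.13e-12).

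FOXO factors sit directly below AKT, and most of the genes listed as responsive to them rose. FOXO activity was not measured. Of the 41 tested FOXO-responsive genes, 27 rose (65.9%) and 4 fell (9.76%), with a median log2 fold change of 0.46. Among the factors, FOXO3 was at 60.2, 72.2 and 76.1 CPM in DMSO and 120.0, 132 and 122 CPM in AKTi (log2 fold change 0.84 ± 0.065, adjusted p = 3.81e-13). FOXO4 was at 11.6, 10.1 and 10.5 CPM in DMSO and 20.5, 20.9 and 22.0 CPM in AKTi (log2 fold change 0.98 ± 0.10, adjusted p = 4.21e-10). For these factors the arms were well separated. FOXO1, at 2.69, 3.69 and 3.93 CPM in DMSO and 4.56, 4.27 and 4.45 CPM in AKTi, was higher in every AKTi library without passing the test (0.35 ± 0.18, adjusted p = 0.116), and FOXO6 overlapped between arms (-0.31 ± 0.19, adjusted p = 0.195).

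Beside IRS2 and PIK3IP1, the third leading FOXO-responsive gene was FBXO32, a muscle ubiquitin ligase also called atrogin-1, at 1.82, 1.48 and 3.21 CPM in DMSO and 6.29, 6.16 and 8.90 CPM in AKTi (log2 fold change 1.64 ± 0.21, adjusted p = 2.7e-08). TXNIP, which restrains glucose uptake, and YPEL3 were chosen for display after their values were seen. TXNIP was at 99.3, 101 and 106 CPM in DMSO and 206, 196 and 211 CPM in AKTi (log2 fold change 1.01 ± 0.055, adjusted p = 3.51e-17), and YPEL3 at 4.71, 6.93 and 4.32 CPM in DMSO and 14.8, 15.8 and 15.5 CPM in AKTi (log2 fold change 1.56 ± 0.14, adjusted p = 1.45e-11). None of these genes had overlapping arms. The members that fell did include classical FOXO outputs. The CDK inhibitor CDKN1A (p21) was at 81.8, 75.5 and 72.4 CPM in DMSO and 41.0, 44.8 and 49.6 CPM in AKTi (log2 fold change -0.76 ± 0.071, adjusted p = 4.48e-11), the death ligand TNFSF10 (TRAIL) fell by 1.03 ± 0.22, and CDKN1B (p27) fell from 82.9, 83.8 and 90.3 CPM in DMSO to 71.2, 69.9 and 67.8 CPM in AKTi (log2 fold change -0.30 ± 0.061, adjusted p = 9.31e-05).

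Because FOXO factors bind a short DNA motif, the promoters of list members were searched for its core. Promoters are RefSeq windows of 300 bases (250 before to 50 after the transcription start, GRCh38.p14), found for 11597 tested genes with 16726 windows. The letters GTAAACA, on either strand, were found in 2.71% of all windows, in 3.29% of those of genes that rose, in 2.42% of those of genes that fell, and in 16.7% of the windows (8 of 48) of the 34 FOXO-responsive genes with a promoter. In genes that rose at least 2-fold the share was 5.95%. The windows of 3 genes that hold the core are shown because they carry the motif within this class. Capitals mark the FOXO core (GTAAACA, or TGTTTAC where it lies on the opposite strand). They also mark CCAAT boxes, likewise on either strand. PIK3IP1 is at chr22:31292439-31292738, TXNIP at chr1:145996530-145996829 and YPEL3 at chr16:30096164-30096463, all on the minus strand and written 5′ to 3′ along the gene.
PIK3IP1: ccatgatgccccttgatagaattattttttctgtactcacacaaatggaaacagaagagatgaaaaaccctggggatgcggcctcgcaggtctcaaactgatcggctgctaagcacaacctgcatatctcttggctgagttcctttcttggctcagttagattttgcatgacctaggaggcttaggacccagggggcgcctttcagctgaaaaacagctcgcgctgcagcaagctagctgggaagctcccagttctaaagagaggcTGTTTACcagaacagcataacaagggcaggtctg
TXNIP: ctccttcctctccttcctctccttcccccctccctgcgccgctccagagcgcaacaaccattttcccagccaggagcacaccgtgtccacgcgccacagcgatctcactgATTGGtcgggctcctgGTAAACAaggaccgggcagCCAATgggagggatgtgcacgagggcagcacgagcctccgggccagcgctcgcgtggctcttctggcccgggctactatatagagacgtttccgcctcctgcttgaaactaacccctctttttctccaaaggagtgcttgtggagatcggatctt
YPEL3: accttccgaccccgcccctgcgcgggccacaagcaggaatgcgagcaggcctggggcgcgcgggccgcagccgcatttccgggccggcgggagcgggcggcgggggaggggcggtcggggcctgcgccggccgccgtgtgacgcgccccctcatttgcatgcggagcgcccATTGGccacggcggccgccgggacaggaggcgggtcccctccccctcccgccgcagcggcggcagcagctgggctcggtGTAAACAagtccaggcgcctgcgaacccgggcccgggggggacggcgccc
The core begins at base 267 of the PIK3IP1 window, at base 127 in TXNIP and at base 251 in YPEL3. The other window of PIK3IP1 and that of TXNIP hold no core, while a window of CDK1, which fell, holds one (chr10:60778081-60778380). The IRS2 window, at chr13:109786534-109786833, holds none in its 300 bases. A match is only a match of letters, and binding was not measured.

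The genes with the largest changes were then taken as a set, namely the 10 highest and 10 lowest protein-coding genes whose arms did not overlap and whose level was at least 1 log2 CPM. After IRS2 the largest increase was in ABTB1, an ankyrin repeat protein, at 1.88, 1.25 and 0.863 CPM in DMSO and 8.54, 9.74 and 8.20 CPM in AKTi (log2 fold change 2.77 ± 0.19, adjusted p = 2.32e-14). PTP4A3, a tyrosine phosphatase also known as PRL-3, was at 1.55, 1.48 and 1.05 CPM in DMSO and 6.94, 6.52 and 6.67 CPM in AKTi (log2 fold change 2.33 ± 0.22, adjusted p = 4.3e-11). ADRA2A, the alpha-2A adrenergic receptor, was at 1.14, 1.03 and 0.911 CPM in DMSO and 3.62, 3.78 and 7.92 CPM in AKTi (log2 fold change 2.33 ± 0.26, adjusted p = 3.38e-09). All AKTi libraries were far above vehicle for these genes, although AKTi replicate C stood apart for ADRA2A.

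ACKR3 (CXCR7), an atypical chemokine receptor that binds CXCL12, was at 11.2, 9.37 and 10.2 CPM in DMSO and 45.3, 49.5 and 48.8 CPM in AKTi (log2 fold change 2.22 ± 0.084, adjusted p = 1.29e-21). SLC2A12, a glucose transporter, was at 3.70, 3.54 and 3.45 CPM in DMSO and 13.5, 16.5 and 13.1 CPM in AKTi (log2 fold change 2.01 ± 0.14, adjusted p = 2.29e-14). TCP11L2 (2.17 ± 0.16), NATD1 (2.10 ± 0.15), SSPO (2.04 ± 0.17) and LTBP2, a TGF-beta binding matrix protein (1.97 ± 0.15), completed the set.

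**Figure D3:**
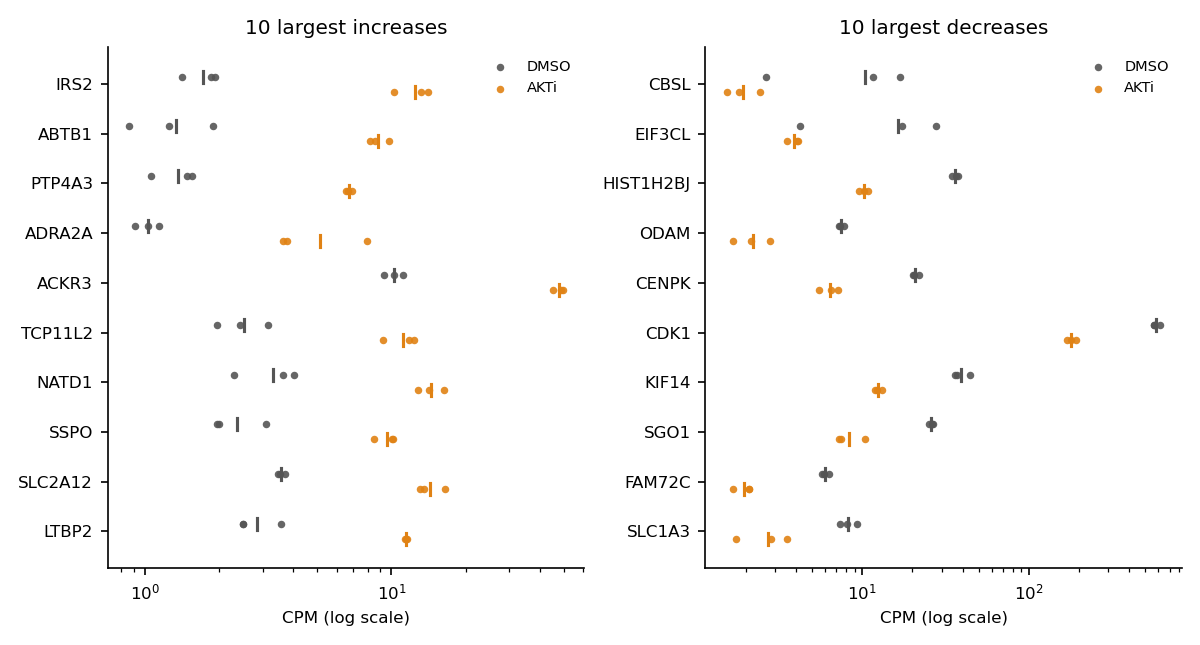
CPM (log scale) of the 10 genes with the largest increases (left) and decreases (right), with 1 point per library, DMSO in gray, AKTi in orange and a bar at each mean. The arms are separate for every gene, while CBSL and EIF3CL show wide scatter within DMSO.

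At the other end, CBSL (-2.39 ± 0.40) and EIF3CL (-2.08 ± 0.47) had the lowest values, but they are near-identical copies of CBS and EIF3C and are uncertain. CBSL was at 16.8, 11.7 and 2.64 CPM in DMSO and 1.81, 1.54 and 2.43 CPM in AKTi, while CBS itself differed by -0.07 ± 0.16 (adjusted p = 0.767). EIF3CL was at 16.4 ± 11.8 CPM in DMSO and 3.91 ± 0.318 CPM in AKTi (mean ± SD, n = 3), and EIF3C differed by -0.15 ± 0.36 (adjusted p = 0.781). How reads were shared between these copies was not tested. The histone gene HIST1H2BJ was at 36.3, 34.6 and 37.7 CPM in DMSO and 9.55, 10.8 and 10.2 CPM in AKTi (log2 fold change -1.83 ± 0.098, adjusted p = 1.81e-17). CENPK, a centromere protein, was at 21.8, 20.4 and 20.2 CPM in DMSO and 5.50, 7.15 and 6.46 CPM in AKTi (log2 fold change -1.71 ± 0.15, adjusted p = 1.54e-11). The arms were far apart for both.

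The mitotic kinase CDK1, at chr10:60778331-60794852, was at 615, 564 and 561 CPM in DMSO and 191, 178 and 169 CPM in AKTi, a 3.23-fold decrease (log2 fold change -1.69 ± 0.06, adjusted p = 4.16e-22). The kinesin KIF14 (-1.65 ± 0.12) and the cohesin protector SGO1 (-1.62 ± 0.14) fell by similar amounts. FAM72C (-1.61 ± 0.27) has close paralogs that can share reads. ODAM, a secreted protein best known from enamel, fell from 7.27, 7.74 and 7.34 CPM in DMSO to 1.66, 2.80 and 2.15 CPM in AKTi (log2 fold change -1.75 ± 0.24, adjusted p = 1.78e-07), and the glutamate transporter SLC1A3 fell by 1.60 ± 0.27.

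Genes of cell division fell almost without exception. Of 60 tested mitotic genes 59 fell and 0 rose, with a median log2 fold change of -1.31 and a range of -1.69 to -0.36, and only PRC1 did not pass. The median of the list relative to the DMSO mean was 0.01, -0.03 and 0.00 in the DMSO libraries and -1.25, -1.30 and -1.30 in the AKTi libraries. DNA replication showed the same picture at a smaller size, with 56 of 57 lower, 0 higher and a median of -0.76 (only POLD2 did not pass). MKI67, the Ki-67 proliferation antigen, was at 203, 226 and 215 CPM in DMSO and 98.2, 96.7 and 97.0 CPM in AKTi (log2 fold change -1.14 ± 0.059, adjusted p = 5.34e-18). The bulk values cannot tell fewer dividing cells from less of these RNAs per cell.

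Among mitotic genes, PBK, a mitotic kinase, fell with CDK1 and KIF14 (-1.57 ± 0.064). CDC20 and PLK1, an activator of the anaphase-promoting complex and a mitotic kinase, are given because their promoters are printed. CDC20 was at 279, 273 and 278 CPM in DMSO and 100.3, 104 and 104 CPM in AKTi (log2 fold change -1.43 ± 0.054, adjusted p = 1.41e-21), and PLK1 at 195, 204 and 225 CPM in DMSO and 76.5, 78.7 and 90.2 CPM in AKTi (log2 fold change -1.35 ± 0.064, adjusted p = 8.1e-19). In the replication list the strongest decreases were in the helicase factor CDC45, the cohesion factor DSCC1 and the ribonucleotide reductase subunit RRM2. CDC45 was at 85.4, 76.0 and 76.5 CPM in DMSO and 29.4, 32.1 and 29.5 CPM in AKTi (log2 fold change -1.39 ± 0.085, adjusted p = 6.32e-16), DSCC1 fell by 1.33 ± 0.092, and RRM2 was at 180.1, 172 and 182 CPM in DMSO and 71.7, 73.8 and 68.5 CPM in AKTi (log2 fold change -1.32 ± 0.064, adjusted p = 1.22e-18).

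Sequence elements known from mitotic promoters were counted next, as a description. The cell cycle genes homology region (CHR) with the letters TTTGAA, on either strand, was found in 63.3% of the 60 windows of mitotic genes, against 10.3% of all windows and 1.59% of the 63 windows of replication genes. CCAAT boxes were found in 73.3% of mitotic, 60.3% of replication and 34.5% of all windows. In genes that fell at least 2-fold, a class that includes many of these list members, the CHR was found in 33.9% of windows. The windows of CDK1, CDC20 and PLK1 are shown because each holds both elements, with the CHR (TTTGAA or TTCAAA), the CCAAT box (CCAAT or ATTGG) and, in PLK1, an E-box (CACGTG) in capitals. They lie on the plus strand at chr10:60778228-60778527, chr1:43358731-43359030 and chr16:23678639-23678938.
CDK1: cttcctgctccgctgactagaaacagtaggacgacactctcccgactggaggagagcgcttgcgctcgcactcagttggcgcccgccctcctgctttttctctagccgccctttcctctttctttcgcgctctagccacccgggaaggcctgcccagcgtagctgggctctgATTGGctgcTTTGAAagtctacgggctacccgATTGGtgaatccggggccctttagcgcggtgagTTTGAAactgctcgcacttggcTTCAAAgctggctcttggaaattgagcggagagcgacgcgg
CDC20: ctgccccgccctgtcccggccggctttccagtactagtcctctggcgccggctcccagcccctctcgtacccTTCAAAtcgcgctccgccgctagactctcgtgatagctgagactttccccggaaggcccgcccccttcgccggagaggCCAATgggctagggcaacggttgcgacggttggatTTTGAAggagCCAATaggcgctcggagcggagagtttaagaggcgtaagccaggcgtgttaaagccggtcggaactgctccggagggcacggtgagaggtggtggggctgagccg
PLK1: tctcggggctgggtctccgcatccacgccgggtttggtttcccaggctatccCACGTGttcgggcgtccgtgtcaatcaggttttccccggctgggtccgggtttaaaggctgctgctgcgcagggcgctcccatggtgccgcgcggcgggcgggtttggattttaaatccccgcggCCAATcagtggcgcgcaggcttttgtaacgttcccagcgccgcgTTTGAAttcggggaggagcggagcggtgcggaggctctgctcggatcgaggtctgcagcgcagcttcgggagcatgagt
The CDK1 window holds 3 CHR and 2 CCAAT matches, the CDC20 window 2 of each and the PLK1 window 1 of each. These are descriptions of letters and not of bound sites.

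G1 regulators were mostly lower, with 20 of 29 down and 4 up (median -0.52). The E2F repressors E2F8 (-1.08 ± 0.13) and E2F7 (-0.98 ± 0.12) and cyclin E2 (CCNE2, -1.02 ± 0.12) fell most. Of the 4 that rose, CDKN1C, CCNG2 and RBL2 are known to restrain the cycle. CDKN1C (p57) was at 0.740, 1.48 and 0.911 CPM in DMSO and 3.04, 2.94 and 2.64 CPM in AKTi (log2 fold change 1.49 ± 0.27, adjusted p = 1.76e-05), and cyclin G2 (CCNG2) and the pocket protein RBL2 (p130) rose by 0.70 ± 0.055 and 0.51 ± 0.06. CCND1 (cyclin D1) rose slightly, from 308, 313 and 349.6 CPM in DMSO to 373, 387 and 391 CPM in AKTi (log2 fold change 0.24 ± 0.053, adjusted p = 0.000271).

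**Figure D4:**
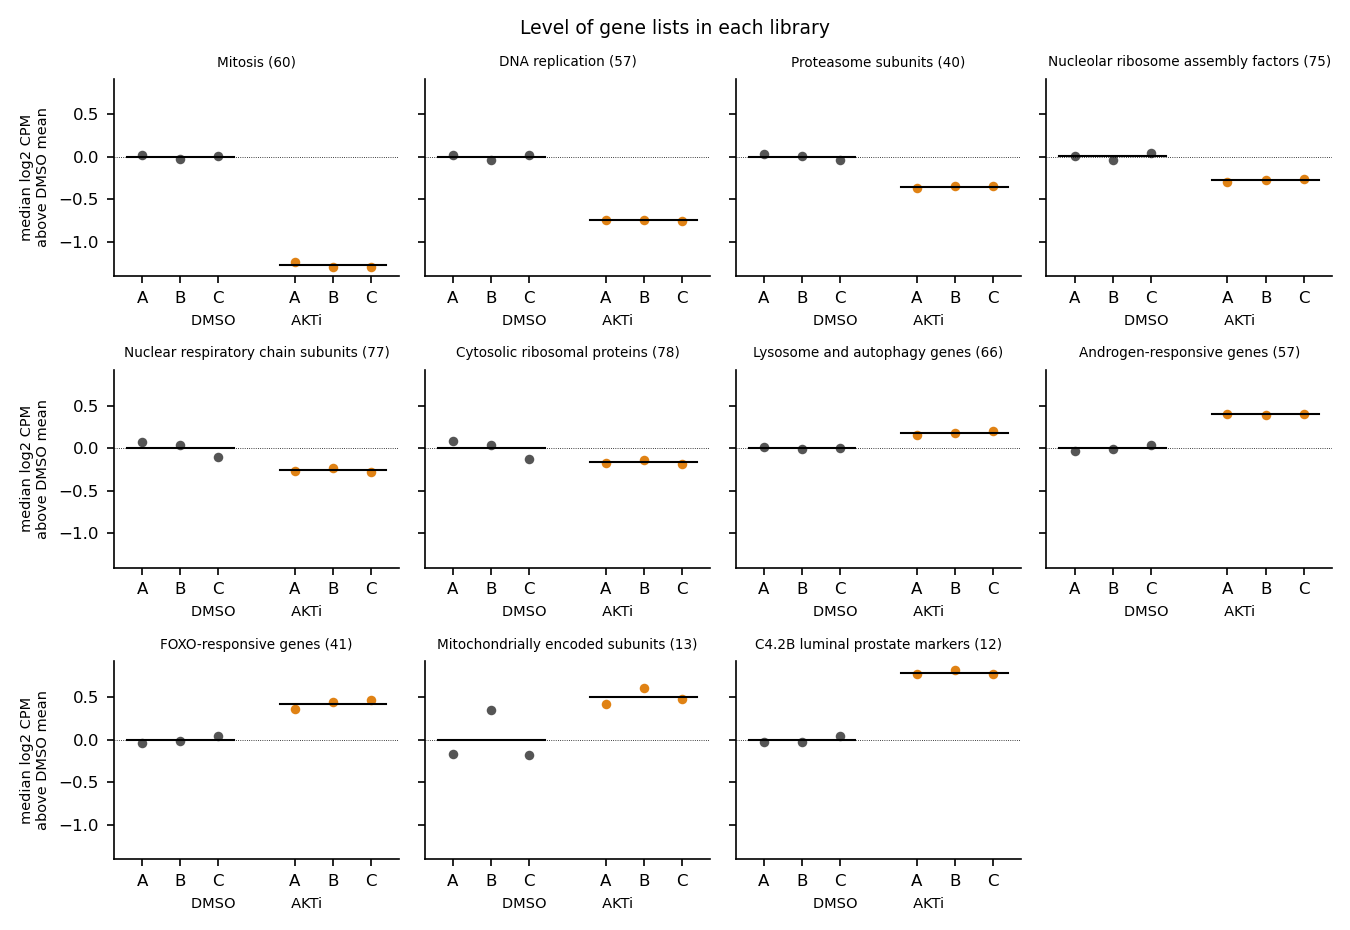
Median log2 CPM of 11 gene lists in each of the 6 libraries, relative to the mean of the DMSO libraries for each gene, with DMSO in gray, AKTi in orange, a line at each arm's mean and the number of tested genes in parentheses. Mitosis lies near -1.25 to -1.30 in every AKTi library, whereas the mitochondrially encoded subunits vary within DMSO from -0.19 to 0.34.

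Androgen-responsive genes rose in the steroid-depleted serum. Of the 57 androgen-responsive genes tested, 34 rose (59.6%) and 11 fell (19.3%), with a median of 0.39. KLK3, which encodes prostate-specific antigen, was at 1389, 1338 and 1389 CPM in DMSO and 2313, 2374 and 2339.6 CPM in AKTi (log2 fold change 0.77 ± 0.05, adjusted p = 3.33e-15), and KLK2, a related kallikrein, at 96.7, 105 and 106 CPM in DMSO and 178, 185 and 176 CPM in AKTi (log2 fold change 0.80 ± 0.057, adjusted p = 3.81e-14). Both lay well outside the spread of vehicle.

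TMPRSS2, a serine protease induced by androgen, was at 50.0, 56.6 and 55.8 CPM in DMSO and 162, 189.6 and 179 CPM in AKTi, a 3.27-fold rise (log2 fold change 1.71 ± 0.063, adjusted p = 7.98e-22). SLC45A3 (prostein) was at 16.7, 18.7 and 17.0 CPM in DMSO and 61.0, 70.7 and 67.2 CPM in AKTi (log2 fold change 1.93 ± 0.076, adjusted p = 3.26e-21), and ALDH1A3, a retinaldehyde dehydrogenase, rose by 1.92 ± 0.11. OPRK1 had 0 counts in every DMSO library and at most 0.210 CPM in AKTi, so no fold change is given. The response was not uniform. FKBP5, a cochaperone and standard androgen target, fell from 152, 155 and 165 CPM in DMSO to 127, 135 and 132 CPM in AKTi (log2 fold change -0.26 ± 0.059, adjusted p = 0.000395), and EAF2 (-0.90 ± 0.20), MPHOSPH9 (-0.80 ± 0.081) and TUBB2A (-0.75 ± 0.22) were also lower.

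The 12 luminal prostate markers, several of them androgen targets too, had 10 members higher and 2 lower. The homeobox factor HOXB13 rose by 0.41 ± 0.055, the prostate-specific membrane antigen gene FOLH1 by 0.39 ± 0.049 and the metalloreductase STEAP2 by 0.90 ± 0.058. KRT8 was slightly higher (0.16 ± 0.057), while its partner KRT18 (-0.18 ± 0.057) and EPCAM (-0.28 ± 0.058) were lower. KRT8 lost its call without DMSO replicate B, AKTi replicate B or AKTi replicate C, and KRT18 without DMSO replicate C or AKTi replicate A and under scaling by library size or upper quartile. Of 20 tested nuclear receptor and coregulator genes 11 rose and 4 fell. NCOA2, a steroid receptor coactivator, rose by 0.51 ± 0.065, while the chaperones HSP90AA1 (-0.41 ± 0.057) and FKBP4 (-0.39 ± 0.054) fell, as did UBE2C, a ubiquitin-conjugating enzyme of mitosis (-1.37 ± 0.073).

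Ribosome assembly factors were mostly lower, by small amounts. Nucleolar ribosome assembly factors had 50 of 75 members lower (66.7%) and 2 higher, with a median of -0.28. The small-subunit factor PNO1 was at 43.7, 43.4 and 40.7 CPM in DMSO and 25.0, 25.7 and 20.0 CPM in AKTi (log2 fold change -0.85 ± 0.11, adjusted p = 3.05e-08), and LTV1 (-0.80 ± 0.11) and LYAR (-0.74 ± 0.093) fell by similar amounts. E-boxes (CACGTG) were found in 34.7% of the 75 promoter windows of this list against 9.45% of all windows.

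Cytosolic ribosomal proteins had 39 of 78 lower and 3 higher (median -0.17). The list median was 0.09, 0.04 and -0.12 in the DMSO libraries against -0.17, -0.14 and -0.18 in AKTi, a spread within vehicle as wide as the change of the list, and the count of 42 called ran from 32 without DMSO replicate A to 57 without DMSO replicate C. Among those that fell were RPS26 (-0.49 ± 0.056) and RPL9 (-0.46 ± 0.062). RPS26 and other ribosomal proteins have many near-identical pseudogene copies that can take or lend reads. RPL3 rose from 3604, 3357 and 3469.9 CPM in DMSO to 4011, 4176 and 4128 CPM in AKTi (log2 fold change 0.24 ± 0.051, adjusted p = 0.0002).

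Translation factors were divided, with 11 of 47 higher (23.4%) and 22 lower (46.8%), shares near those of the most abundant quartile (23.5% and 41.0%). The counts were 14 and 18 when scaled by library size or upper quartile. EIF4G2, an initiation factor for unconventional translation, fell from 1846, 1864 and 1956 CPM in DMSO to 1282, 1267 and 1293 CPM in AKTi (log2 fold change -0.56 ± 0.051, adjusted p = 2.46e-11), and the EIF2B subunit EIF2B3 fell by 0.81 ± 0.091. In contrast EEF2, the elongation factor that moves the ribosome along, rose from 5855, 5901 and 6359 CPM in DMSO to 8297, 8879 and 9098 CPM in AKTi (log2 fold change 0.54 ± 0.054, adjusted p = 2.53e-10). PDCD4, an inhibitor of the eIF4A helicase, rose by 0.60 ± 0.065. Cytosolic aminoacyl-tRNA synthetases had 15 of 20 lower and 0 higher (12 lower and 2 higher by library size), led by FARSB (-0.73 ± 0.056), IARS (-0.48 ± 0.057) and MARS (-0.35 ± 0.054).

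Most proteasome subunits were lower, with 34 of 40 lower (85%), 0 higher and a median of -0.35. PSMD14, the deubiquitinase of its lid, was at 141, 148 and 132 CPM in DMSO and 77.0, 77.1 and 78.7 CPM in AKTi (log2 fold change -0.85 ± 0.061, adjusted p = 4.65e-14). The core subunits PSMA3 (-0.80 ± 0.068) and PSMA5 (-0.67 ± 0.068) followed. Purine and pyrimidine synthesis had 18 of 29 lower and 2 higher (median -0.34). TYMS, which makes thymidylate, was at 60.6, 57.5 and 58.3 CPM in DMSO and 24.1, 28.3 and 30.0 CPM in AKTi (log2 fold change -1.10 ± 0.086, adjusted p = 5.24e-13).

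MYC, a transcription factor known to drive many growth genes, rose at the RNA level. It was at 239.6, 246 and 254 CPM in DMSO and 386, 409 and 417 CPM in AKTi (log2 fold change 0.71 ± 0.055, adjusted p = 3.1e-13). Its network had 6 of 11 members higher and 2 lower. Those that rose included the MYC antagonists MXD4, at 74.5, 76.5 and 73.4 CPM in DMSO and 143, 149.8 and 149 CPM in AKTi (log2 fold change 0.98 ± 0.065, adjusted p = 7.57e-15), MXI1 (0.67 ± 0.065) and MNT (0.50 ± 0.097), with MGA (0.28 ± 0.068) and MLXIP (0.38 ± 0.057). MXD3 (-0.59 ± 0.12) and MLX (-0.47 ± 0.061) fell. MAX, the obligate partner of MYC, overlapped between arms (-0.01 ± 0.069, adjusted p = 0.899), as did MYCL (0.18 ± 0.15) and MXD1 (-0.18 ± 0.16).

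Genes of energy metabolism were lower in part. Of 30 glycolytic enzymes and glucose transporters 14 fell (46.7%) and 6 rose (20%), with a median of -0.20. Among all tested genes 21.9% fell and 20.6% rose, and in the most abundant quartile 41.0% and 23.5%. LDHA, which turns pyruvate into lactate, had the largest decrease, from 1491, 1454 and 1519.6 CPM in DMSO to 664, 673 and 682 CPM in AKTi, or 2.21-fold (log2 fold change -1.15 ± 0.055, adjusted p = 8.1e-19). LDHB fell by 0.69 ± 0.082, and HK2, the first enzyme of glycolysis, was at 98.2, 110.3 and 122 CPM in DMSO and 75.4, 75.7 and 72.4 CPM in AKTi (log2 fold change -0.57 ± 0.072, adjusted p = 3.27e-08). SLC2A1 (GLUT1) was at 85.6, 82.7 and 90.9 CPM in DMSO and 64.0, 66.6 and 66.0 CPM in AKTi (log2 fold change -0.40 ± 0.07, adjusted p = 1.16e-05). The arms were separate for each of these genes. Other transporters rose, SLC2A12 as above and the insulin-regulated SLC2A4 (GLUT4) by 0.64 ± 0.22, a call that was lost without DMSO replicate B or AKTi replicate B.

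HIF-1 targets outside glycolysis were split, with 11 of 34 higher (32.4%) and 15 lower (44.1%). For these lists too, the shares over all tested genes were 20.6% higher and 21.9% lower. In the most abundant quartile they were 23.5% and 41.0%. HIF1A itself fell slightly (-0.19 ± 0.061, adjusted p = 0.0126), a call that was lost under scaling by library size or upper quartile and without DMSO replicate C. VEGFA, the angiogenic growth factor, was at 103, 95.5 and 97.1 CPM in DMSO and 73.1, 69.3 and 67.9 CPM in AKTi (log2 fold change -0.49 ± 0.063, adjusted p = 4.38e-08), and ANKRD37 fell by 1.02 ± 0.22, whereas NDRG1 rose by 0.89 ± 0.064. The pentose phosphate pathway had 7 of 15 lower (46.7%) and 2 higher (13.3%), with PRPS1 at -0.54 ± 0.057 and H6PD, its enzyme in the endoplasmic reticulum, at 0.86 ± 0.064. The TCA cycle had 14 of 30 lower (46.7%) and 4 higher (13.3%), or 12 and 6 by library size or upper quartile. Its decreases were led by MDH1 (-0.70 ± 0.063), SUCLG1 (-0.62 ± 0.065) and IDH1 (-0.55 ± 0.051), while OGDHL was higher (1.10 ± 0.15).

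The nuclear and the mitochondrial genes of the respiratory chain moved in opposite directions. Of 77 nuclear-encoded subunits 47 fell (61.0%) and 1 rose (median -0.27), with list medians of 0.07, 0.04 and -0.10 in the DMSO libraries and -0.26, -0.24 and -0.28 in AKTi. CYCS (cytochrome c) was at 787, 731 and 695 CPM in DMSO and 409, 395 and 398 CPM in AKTi (log2 fold change -0.88 ± 0.052, adjusted p = 3.19e-16), and the complex I subunit NDUFAB1 fell by 0.67 ± 0.064. All 13 mitochondrially encoded genes rose in edgeR's test, 11 of them without overlap between arms (median 0.46). MT-CO1, a subunit of complex IV, was at 5638, 8182 and 5512 CPM in DMSO and 9469, 10844 and 9907 CPM in AKTi (log2 fold change 0.64 ± 0.089, adjusted p = 1.98e-07). Mitochondrial counts made up 2.37% to 3.36% of a DMSO library and 3.93% to 4.29% of an AKTi library. DMSO replicate B was the highest of its arm for MT-CO1, and all 13 genes also passed without it. What set this share was not tested.

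Lipid synthesis was mixed. Sterol synthesis had 14 of 24 lower and 5 higher (median -0.19). EBP, a sterol isomerase, was at 147, 134 and 141 CPM in DMSO and 72.8, 77.4 and 71.7 CPM in AKTi (log2 fold change -0.93 ± 0.068, adjusted p = 8.63e-14), and ACAT2 fell by 0.80 ± 0.076. The sterol reductase TM7SF2 rose from 86.4, 87.0 and 88.8 CPM in DMSO to 202, 212 and 222 CPM in AKTi (log2 fold change 1.28 ± 0.061, adjusted p = 8.78e-19), as did the regulator SREBF2 (0.40 ± 0.054). HMGCS1 (0.02 ± 0.076, adjusted p = 0.864) did not pass.

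Fatty acid synthesis and desaturation had 9 of 30 higher (30%) and 11 lower (36.7%). The shares were 20.6% and 21.9% over all tested genes and 23.5% and 41.0% in the most abundant quartile. FADS2, a fatty acid desaturase, was at 1095, 1141 and 1209.6 CPM in DMSO and 667, 704 and 691 CPM in AKTi (log2 fold change -0.74 ± 0.053, adjusted p = 4.65e-14). ELOVL6 (-0.80 ± 0.12) and malic enzyme ME1 (-0.70 ± 0.055) fell too. The synthase FASN did not pass (-0.09 ± 0.062, adjusted p = 0.234), but was lower by the same test without DMSO replicate A, and SREBF1 was lower (-0.19 ± 0.058), a call that was lost by library size or upper quartile. AGPAT2, an acyltransferase of phospholipid and triglyceride synthesis, rose from 8.62, 8.26 and 8.01 CPM in DMSO to 18.0, 22.3 and 18.7 CPM in AKTi (log2 fold change 1.25 ± 0.11, adjusted p = 1.78e-11). Fatty acid oxidation leaned upward, with 12 of 29 higher and 5 lower (median 0.12), and the peroxisomal oxidase ACOX2 was at 2.49, 2.58 and 3.07 CPM in DMSO and 10.3, 8.13 and 10.0 CPM in AKTi (log2 fold change 1.78 ± 0.16, adjusted p = 9.47e-12).

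Most ATF4-responsive genes were lower after ipatasertib alone. Of 39 ATF4-responsive genes, which are induced when amino acids are short or proteins misfold, 23 fell (59.0%) and 3 rose, with a median of -0.27. ATF4 was at 723, 717 and 703 CPM in DMSO and 620.0, 633 and 628 CPM in AKTi (log2 fold change -0.19 ± 0.049, adjusted p = 0.00206). CHAC1, a glutathione-degrading enzyme, was at 19.8, 22.3 and 19.9 CPM in DMSO and 8.39, 9.81 and 10.1 CPM in AKTi (log2 fold change -1.13 ± 0.11, adjusted p = 1.13e-10), and the stress hormone gene FGF21 was at 1.48, 1.55 and 1.82 CPM in DMSO and 0.217, 0.210 and 0.0695 CPM in AKTi, with at most 3 counts behind each AKTi value. Asparagine synthetase (ASNS) did not pass (-0.14 ± 0.11, adjusted p = 0.319). NUPR1 rose from 204, 206 and 198 CPM in DMSO to 291, 275 and 298 CPM in AKTi (log2 fold change 0.51 ± 0.053, adjusted p = 6.55e-10).

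Serine and one-carbon enzymes had 11 of 19 lower and 1 higher (median -0.31), among them TYMS above and the serine enzyme PSPH (-0.70 ± 0.064). Amino acid transporters had 6 of 25 higher (24.0%) and 7 lower (28.0%), shares near the 20.6% and 21.9% of all tested genes. SLC7A11, the cystine transporter and an NRF2 target, was at 327, 315 and 344 CPM in DMSO and 231, 217 and 198 CPM in AKTi (log2 fold change -0.61 ± 0.062, adjusted p = 3.05e-10). NRF2 targets had 14 of 27 lower and 6 higher (median -0.26). NQO1, a quinone reductase, was at 367, 352 and 328 CPM in DMSO and 216, 223 and 224 CPM in AKTi (log2 fold change -0.66 ± 0.056, adjusted p = 3.27e-12), and ferritin light chain (FTL) was higher, at 154, 133 and 144 CPM in DMSO and 262, 292 and 278 CPM in AKTi (log2 fold change 0.95 ± 0.06, adjusted p = 1.65e-15). FTL has many pseudogene copies.

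The p53 targets went both ways, with 11 of 30 higher (36.7%) and 13 lower (43.3%), against 20.6% and 21.9% of all tested genes. PMAIP1 (NOXA) was at 19.3, 18.7 and 16.7 CPM in DMSO and 8.46, 8.41 and 7.79 CPM in AKTi (log2 fold change -1.14 ± 0.14, adjusted p = 2.2e-08), and CDKN1A fell as given above. TP53INP1, an inducer of autophagy and cell death, was at 168, 162 and 175 CPM in DMSO and 331, 324 and 321 CPM in AKTi (log2 fold change 0.95 ± 0.055, adjusted p = 1.85e-16), and BBC3 (PUMA), which is also FOXO-responsive, at 3.57, 3.02 and 3.93 CPM in DMSO and 6.51, 7.71 and 8.27 CPM in AKTi (log2 fold change 1.08 ± 0.18, adjusted p = 7.66e-06). In the BCL-2 family, which holds both of these BH3-only genes, 7 of 18 rose and 3 fell. BOK (0.72 ± 0.072) and BMF (0.66 ± 0.15) rose, while BCL2L12 (-0.89 ± 0.11) and BAK1 (-0.49 ± 0.096) fell.

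Endoplasmic reticulum chaperones and unfolded protein response genes had 4 of 30 higher (13.3%) and 8 lower (26.7%), or 8 and 7 by library size or upper quartile. The shares over all tested genes were 20.6% and 21.9%. XBP1 was at -0.49 ± 0.057. Polyamine enzymes had 4 of 15 higher and 4 lower (26.7% each), shares near those of all tested genes, or 6 and 3 members by library size or upper quartile. ODC1, the first enzyme of the pathway, fell from 1072, 1055 and 1096 CPM in DMSO to 681, 689.6 and 683 CPM in AKTi (log2 fold change -0.65 ± 0.051, adjusted p = 5.99e-13), and AMD1 and SRM fell too (-0.46 ± 0.052 and -0.42 ± 0.057). Those that rose included enzymes that supply or degrade its products, with ARG2 at 0.99 ± 0.076, PAOX at 0.64 ± 0.14 and SAT1 at 0.56 ± 0.08.

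Lysosome and autophagy genes leaned upward, with 29 of 66 higher (43.9%) and 11 lower, and 35 higher and 7 lower by library size or upper quartile. GAA, the lysosomal alpha-glucosidase, was at 59.6, 53.5 and 56.2 CPM in DMSO and 104, 104 and 98.6 CPM in AKTi (log2 fold change 0.85 ± 0.062, adjusted p = 8.07e-14), and the protease CTSF at 49.8, 42.6 and 45.5 CPM in DMSO and 86.7, 89.4 and 87.2 CPM in AKTi (log2 fold change 0.93 ± 0.065, adjusted p = 2.64e-14). The autophagy receptor OPTN rose by 0.98 ± 0.22. The conjugation factors ATG3 (-0.68 ± 0.069) and ATG5 (-0.66 ± 0.091) fell, as did the alpha-galactosidase GLA (-0.79 ± 0.11).

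Signaling outputs that lie beside AKT were less uniform. ERK feedback genes had 5 of 16 higher and 3 lower, with the phosphatase DUSP5 at 2.83, 2.51 and 3.50 CPM in DMSO and 0.723, 1.12 and 0.417 CPM in AKTi (log2 fold change -1.97 ± 0.35, adjusted p = 1.31e-05) and DUSP4 higher (0.66 ± 0.10). AP-1 and immediate early genes had 6 of 23 higher (26.1%) and 2 lower (8.7%), or 8 and 1 by library size or upper quartile. Among all tested genes 20.6% were higher and 21.9% lower, against 31.2% and 18.8% of the ERK feedback genes. The antiproliferative gene BTG1 stood out in that list, at 96.3, 96.3 and 98.5 CPM in DMSO and 226, 228 and 248 CPM in AKTi (log2 fold change 1.27 ± 0.059, adjusted p = 5.01e-19). Interferon-stimulated genes had 12 of 39 higher and 3 lower, with LGALS3BP (0.99 ± 0.13) and ISG20 (0.95 ± 0.15) up and OAS3 (-0.63 ± 0.092) down. Circadian clock genes had 8 of 20 higher and 3 lower, with PER1 (0.51 ± 0.11) up and ARNTL (BMAL1) down (-0.78 ± 0.14).

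PRC2, the complex whose catalytic subunit is the target of the other drug of the study, had lower RNA of EZH2 and some other subunits. EZH2 was at 79.6, 74.0 and 73.8 CPM in DMSO and 45.4, 37.1 and 42.1 CPM in AKTi, a 1.83-fold decrease (log2 fold change -0.87 ± 0.076, adjusted p = 7.44e-12). The core subunit EED (-0.75 ± 0.10) and RBBP7 (-0.58 ± 0.056) fell as well, whereas the alternative catalytic subunit EZH1 rose (0.51 ± 0.10), with JARID2 (0.39 ± 0.077). In all 6 of 13 tested subunits fell and 3 rose (5 and 4 by library size or upper quartile). Of the 8 neuroendocrine markers tested 0 rose and 1, ONECUT2, was lower (-0.33 ± 0.12, adjusted p = 0.0208). The ONECUT2 call was lost by library size (adjusted p = 0.0621), by upper quartile (0.0622) and without DMSO replicate B (0.0744) or AKTi replicate A (0.0616).

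Basal, endothelial, leukocyte and fibroblast markers, of cell types that the culture should not hold, were low, as their sums above show. The 21 neuroendocrine markers summed to 10.2 to 11.9 CPM per kilobase in DMSO and 10.0 to 10.8 in AKTi. Of these, DLL3 alone was at 5.55 to 6.97 in DMSO. The basal genes ITGB4 (1.09 ± 0.18) and DST (-0.67 ± 0.12) moved in opposite directions, VWF was higher (0.61 ± 0.23, adjusted p = 0.028) and lost its call without DMSO replicate C, AKTi replicate A or AKTi replicate B or with a looser filter, and 0 of 3 fibroblast genes and 0 of 1 leukocyte gene passed. COL1A1 was at 6.87, 5.83 and 4.32 CPM in DMSO and 4.27, 4.48 and 6.40 CPM in AKTi and PTPRC at no more than 0.740 CPM in any library.

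The effect of ipatasertib was finally compared with its effect in cells that carried tazemetostat, using the combination against EZH2i, which shares no library with AKTi against DMSO. There 7781 genes (46.7%) passed the test, 3506 higher (21.1%) and 4275 lower (25.7%). Of the 7073 genes called in AKTi against DMSO, 77.5% had a log2 fold change of the same sign in the combination against EZH2i, against 66.6% of all tested genes, and of those that moved at least 2-fold 87.4% (821 of 939) did. The share was 81.7% for genes that fell and 73.0% for genes that rose. Across the tested genes the log2 fold changes correlated with a Pearson r of 0.42 and a Spearman rho of 0.45, given as a description because genes are not independent. The difference between the effects, tested as an interaction over all 12 libraries, passed for 4688 genes (28.2%), of which 1779 were positive and 2909 negative.

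**Figure D5:**
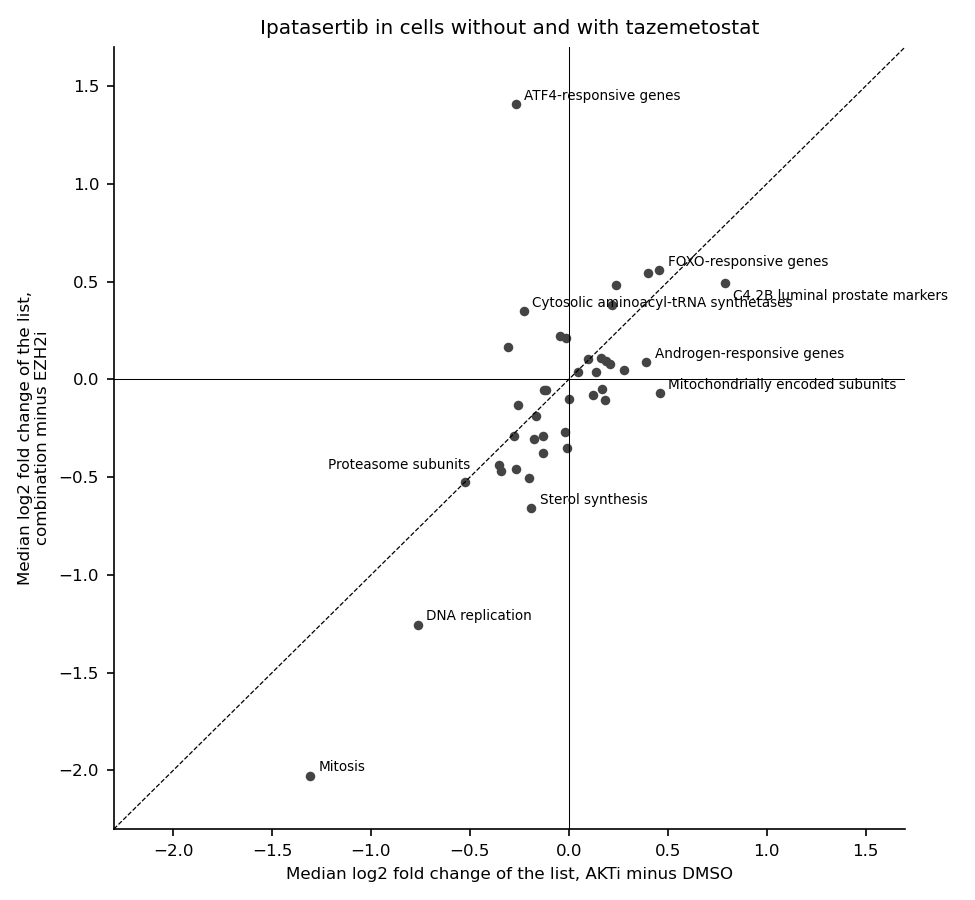
Each point is 1 of the lists with at least 10 tested genes, with its median log2 fold change for AKTi minus DMSO on the x axis and for combination minus EZH2i on the y axis. The dashed line marks equal effects. Mitosis lies at -1.31 and -2.03, and the ATF4-responsive genes lie at -0.27 and 1.41.

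Cell division fell in both settings and by more with tazemetostat, with a median of -2.03 for mitosis (54 of 60 members with a negative interaction) and -1.25 for DNA replication (33 of 57). FOXO-responsive genes rose in both, with medians of 0.46 and 0.56. IRS2 rose in both settings, by 2.84 ± 0.17 and 3.21 ± 0.13, without a detected difference (interaction 0.37 ± 0.23, adjusted p = 0.253). ADRA2A, TCP11L2 and NATD1 also passed no test of the difference, while PTP4A3 rose by 2.33 ± 0.22 alone and differed by 0.21 ± 0.17 with tazemetostat (interaction -2.12 ± 0.28, adjusted p = 1.77e-07).

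The ATF4-responsive genes reversed. Their median was -0.27 with ipatasertib alone and 1.41 when it was added to tazemetostat, and 35 of 39 members had a positive interaction, against 10.7% of all genes. TRIB3 fell by 0.83 ± 0.067 alone and rose by 2.20 ± 0.07 with tazemetostat (interaction adjusted p = 2.93e-23), and ATF4 itself went from -0.19 ± 0.049 to 1.34 ± 0.05 (interaction adjusted p = 3.79e-19). Cytosolic aminoacyl-tRNA synthetases had medians of -0.23 and 0.35, with a positive interaction for 12 of 20. Sterol synthesis fell by more with tazemetostat (median -0.66, 18 of 24 members with a negative interaction, against 17.5% of all genes). Androgen-responsive genes rose by less, with medians of 0.39 alone and 0.09 with tazemetostat and a negative interaction for 28 of 57.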

How the data were processed

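The analysis began from raw gene counts of the C4.2B libraries. The authors aligned reads to hg38 with STAR and counted them on genes with HTSeq, and the deposited counts are whole numbers. Versions, annotation and strand setting are not given in the sources used here, so copies and overlapping genes are uncertain. The sequencing site of each library was not given. A second deposited table, of DESeq2-normalized values, was not used.

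Counts were analysed in R 4.3.3 with edgeR 4.0.16 (filterByExpr, minimum count 10 and total 15, TMM scaling, quasi-likelihood test, 1 mean per arm over all 12 libraries). P-values were adjusted by Benjamini-Hochberg over all 16646 genes. The alternatives were DESeq2 1.42.0, other scalings and filters, fewer libraries and a replicate block. Totals of 14133755 to 22276417 counts keep sampling noise small for most genes, and no fold change is given where a group held 3 counts or fewer.

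The gene lists were written from memory and chosen with earlier results of these data known. Named genes are the 10 highest and 10 lowest protein-coding changes (arms not overlapping, at least 1 log2 CPM), a fixed set of pathway genes, up to 3 members per list and direction, and all members of lists of 12 genes or fewer. Some of these genes are not reported here. Figures used matplotlib.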

Additional observations from a re-analysis of the deposited data

Results flagged for a closer look

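The results below are those in which the effect of ipatasertib differed between cells without and with tazemetostat by the interaction test (edgeR, Benjamini-Hochberg). They are given as values, and their causes were not tested. In all, 4688 genes had such a difference. Groups of 3 libraries are too small for a test of outlying samples.

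Among the genes with the largest changes, the interaction (log2) was -2.12 ± 0.28 for PTP4A3, -1.42 ± 0.17 for SLC2A12, -1.29 ± 0.21 for SSPO, -1.23 ± 0.11 for ACKR3, -0.92 ± 0.24 for ABTB1 and -0.89 ± 0.19 for LTBP2. The log2 change with ipatasertib was thus smaller for each where tazemetostat was present. PTP4A3 did not pass there (0.21 ± 0.17, adjusted p = 0.324). Each of these genes was already higher in EZH2i than in DMSO. Mean CPM in DMSO and EZH2i was 1.36 and 7.01 for PTP4A3, 3.57 and 28.9 for SLC2A12 and 2.35 and 20.3 for SSPO. It was 10.3 and 61.7 for ACKR3, 1.33 and 9.39 for ABTB1 and 2.85 and 14.0 for LTBP2. ABTB1 lost its call without DMSO replicate C (-0.63, adjusted p = 0.0615). CDK1 (-1.06 ± 0.089) and SGO1 (-0.62 ± 0.23) fell by more, although SGO1 lost its call when any 1 of 7 libraries was left out, with values from -0.40 to -0.62. SGO1 also lost it with a minimum of 1 count in total (-0.64, adjusted p = 0.0505). CBSL (1.68 ± 0.60) and EIF3CL (2.04 ± 0.65) are near-identical copies with wide scatter in DMSO, and neither passed with DESeq2 (adjusted p = 0.155 and 0.207). CBSL also lost its call with the replicate block (1.46, adjusted p = 0.0682) and when any 1 of 7 libraries was left out, with values from 1.12 to 1.60. EIF3CL lost it without DMSO replicate A (1.47, adjusted p = 0.0945) or combination replicate B (0.85, adjusted p = 0.345).

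Among the fixed pathway genes, 7 were called in opposite directions in the 2 settings. TRIB3 (interaction 3.03 ± 0.097), VEGFA (2.06 ± 0.088), ATF4 (1.53 ± 0.07) and CDKN1B (0.69 ± 0.084) fell with ipatasertib alone and rose when it was added to tazemetostat. CCND1 (-0.88 ± 0.075), AKT2 (-0.44 ± 0.076) and PIK3CB (-0.43 ± 0.088) rose alone and fell on tazemetostat.

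In 10 lists most tested members had an interaction in 1 direction. It was positive for 35 of 39 ATF4-responsive genes and 12 of 20 cytosolic aminoacyl-tRNA synthetases. It was negative for 54 of 60 mitotic genes, 33 of 57 DNA replication genes, 18 of 24 sterol synthesis genes, 16 of 30 fatty acid synthesis genes, 17 of 30 glycolytic enzymes and transporters, 18 of 30 TCA cycle genes, 12 of 13 mitochondrially encoded genes and 7 of 12 luminal prostate markers. The TCA cycle count was 11 without DMSO replicate B or EZH2i replicate C, and the mitochondrial count was 5 with DESeq2.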

How the results depend on the processing

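The count of 7073 genes kept within 1.5 times under every other test, scaling, filter and set of libraries tried, from 6211 without AKTi replicate C to 7261 with only the 6 libraries compared (DESeq2 called 6893, of which 6845 were shared). It was 939 when a 2-fold change was also asked for. Of the 266 genes named, none changed direction for AKTi versus DMSO and 231 kept that call under every alternative. With the replicate block, the letters A, B and C used as a block in the fit, 7044 genes were called and no named gene changed its call for AKTi versus DMSO, while the CBSL interaction lost its call (1.46, adjusted p = 0.0682). Same-lettered DMSO and AKTi libraries deviated together little (correlations of 0.058, 0.0062 and 0.034), against -0.055 to 0.022 for unlike letters. Such low values cannot decide whether plates of the same letter were handled together. Of the lists, receptor tyrosine kinases ranged from 7 (without DMSO replicate B) to 10 called members when a library was left out, against 11, AP-1 genes from 5 (without DMSO replicate B) to 8, against 8, and circadian clock genes from 7 (without AKTi replicate B) to 11, against 11. The neuroendocrine count of 1 became 0 by library size, by upper quartile and without DMSO replicate B or AKTi replicate A, the fibroblast count of 0 became 1 with a minimum of 10 counts in every library or only the 6 libraries, and the endothelial count of 1 became 0 with a minimum of 1 count in total and without DMSO replicate C, AKTi replicate A or AKTi replicate B. The cause of these changes was not tested. The interaction count of 4688 ranged from 4004 to 4666 when a library was left out, an alternative chosen after seeing the data. With 3 libraries per arm, changes of sparse genes are poorly resolved. The fit with only the 6 libraries compared gives no combination or interaction value.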
